A study of Homo sapiens with 2 samples.

Results

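The genes that encode the transcription machinery of the cell nucleus were examined in a list of WSTF ChIP-seq summits from SW620, an established human line from a lymph node metastasis of colorectal carcinoma. They were chosen by symbol from the protein-coding genes of the RefSeq GRCh38.p14 table: POLR1, POLR2, POLR3, GTF2 and GTF3 genes, and TAF or MED genes with a number. This gave 125 of the 20036 protein-coding genes that carry a chromosome label. One of them, GTF2H2C_2, a copy of a TFIIH subunit gene, is listed outside the chromosome order of the table at coordinates that fall among unrelated genes. It was given no summit, which left 124 members.

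The study immunoprecipitated chromatin with an antibody to WSTF, the bromodomain protein encoded by BAZ1B, which works in ISWI chromatin remodelling complexes. The series has 2 samples, 1 named IP and 1 without that suffix, and its design text names input DNA as the control. The title speaks of WSTF knockdown and the design text of overexpression, so the WSTF level of the cells is not known, and neither are the sequencing depth nor the pooling of replicates. A single list of 2697 summits was analysed: each is the 1-base peak of a called region with a score, read as −log10 of the q-value. Without replicate lists or a second condition, every value below describes this list alone, and no condition was tested. Where a gene had no summit, no peak was called there, which does not show that WSTF was absent.

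Nuclear transcription is divided among 3 RNA polymerases. Polymerase I makes the large ribosomal RNA precursor and is placed on its promoter by SL1, a complex of TBP and its own TAF subunits. Polymerase II makes messenger RNA with the general factors encoded by GTF2A, GTF2B, GTF2E, GTF2F and GTF2H genes, with TFIID (TBP and TAFs), and with Mediator, which carries signals from DNA-bound activators. Polymerase III makes transfer RNA and other short RNAs with TFIIIA and TFIIIC, the products of GTF3 genes. Some small subunits belong to several of the enzymes. A complex of WSTF has been linked to transcription by polymerases I and III, which is background here and not a result.

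Promoter sequences from RefSeq (GRCh38.p14, 250 bases before and 50 from the start site on) were listed for 100 of the 124 members. In 11 of them the summit fell inside the 300-base window. Windows of 6 of these members, from different complexes, are printed, 5′ to 3′ on the gene's own strand, because these letters underlie the called peaks. Capitals mark exact matches, on either strand, to 9 short motifs that are spelled out with the promoter comparison.
TAF1B, chr2:9843224-9843523, plus strand: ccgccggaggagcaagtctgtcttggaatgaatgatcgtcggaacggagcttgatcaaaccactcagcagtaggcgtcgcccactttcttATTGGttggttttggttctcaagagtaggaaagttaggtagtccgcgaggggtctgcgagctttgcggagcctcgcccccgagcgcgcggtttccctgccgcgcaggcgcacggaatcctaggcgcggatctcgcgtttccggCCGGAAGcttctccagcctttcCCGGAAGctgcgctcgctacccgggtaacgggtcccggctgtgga
POLR2M, chr15:57706464-57706763, plus strand: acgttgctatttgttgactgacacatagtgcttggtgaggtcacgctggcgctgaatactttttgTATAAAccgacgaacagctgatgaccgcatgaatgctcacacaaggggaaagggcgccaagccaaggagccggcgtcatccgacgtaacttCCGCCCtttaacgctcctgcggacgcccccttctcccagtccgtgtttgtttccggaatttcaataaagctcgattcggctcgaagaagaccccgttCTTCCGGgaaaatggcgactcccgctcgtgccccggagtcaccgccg
GTF2H1, chr11:18322317-18322616, plus strand: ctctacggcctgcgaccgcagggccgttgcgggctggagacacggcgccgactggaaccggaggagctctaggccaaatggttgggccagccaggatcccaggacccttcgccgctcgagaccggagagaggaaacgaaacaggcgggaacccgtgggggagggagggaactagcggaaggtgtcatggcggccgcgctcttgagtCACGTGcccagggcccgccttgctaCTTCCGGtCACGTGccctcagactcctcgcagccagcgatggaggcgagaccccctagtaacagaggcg
TAF9, chr5:69369471-69369770, minus strand: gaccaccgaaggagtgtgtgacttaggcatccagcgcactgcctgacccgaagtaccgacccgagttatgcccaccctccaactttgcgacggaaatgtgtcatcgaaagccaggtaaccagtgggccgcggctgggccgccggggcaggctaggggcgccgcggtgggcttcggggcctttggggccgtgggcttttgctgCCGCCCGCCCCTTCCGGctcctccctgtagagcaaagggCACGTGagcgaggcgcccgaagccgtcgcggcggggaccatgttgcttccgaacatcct
MED31, chr17:6651556-6651855, minus strand: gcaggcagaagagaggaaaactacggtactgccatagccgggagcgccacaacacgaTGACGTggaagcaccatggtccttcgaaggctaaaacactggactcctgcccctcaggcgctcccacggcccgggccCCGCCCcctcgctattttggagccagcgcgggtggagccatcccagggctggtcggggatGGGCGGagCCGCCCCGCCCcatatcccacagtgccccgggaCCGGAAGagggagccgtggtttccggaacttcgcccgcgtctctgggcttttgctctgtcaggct
GTF3A, chr13:27424369-27424668, plus strand: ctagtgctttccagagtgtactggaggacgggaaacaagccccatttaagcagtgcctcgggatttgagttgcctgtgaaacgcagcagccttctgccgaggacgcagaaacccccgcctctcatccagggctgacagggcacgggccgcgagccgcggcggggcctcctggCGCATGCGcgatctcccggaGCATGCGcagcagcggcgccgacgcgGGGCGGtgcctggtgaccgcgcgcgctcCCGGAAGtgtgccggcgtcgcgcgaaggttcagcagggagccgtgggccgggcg
The summit lay at base 273 of the TAF1B window, base 204 of POLR2M, base 50 of GTF2H1, base 203 of TAF9, base 134 of MED31 and base 256 of GTF3A. The start site is base 251. For TAF9, the base of the summit is also the first base of a GGGCGG match on the opposite strand. In MED31 such a match begins at base 135, next to the summit. In GTF3A, 3 matches to GCATGCG, of which 2 overlap, lie upstream of the summit, the last ending at base 199.

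Of the 124 members, 20 had a summit inside the gene or at most 1 kb from it (16.1%, exact Clopper-Pearson 95% interval 10.1 to 23.8). The same share over all 19883 protein-coding genes placed on chromosomes was 13.9%, which lies within that interval. Each of the 20 had 1 summit, and no summit served several members. If every member had the share of its own chromosome, 17.4 would have carried one. With all summits counted, the members' share is thus near the background, and what follows describes which subunits carried the summits. Inside the gene itself, 10 members had a summit (8.06%), beside 8.15% of all genes. With the summits of the upper quartile of scores alone, 10 members had one (8.06%, 3.94 to 14.3), beside 3.64% of all genes. That background lies just below the interval, and the difference was not tested. These intervals cover counting error only and treat genes as independent.

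The 3 machineries were then set side by side, with shared subunits kept apart. Genes of the polymerase III machinery had a summit in 5 of 16 cases (31.2%, 11.02 to 58.7). Polymerase II genes, including general factors, TFIID and Mediator, had one in 10 of 84 (11.9%, 5.86 to 20.8), and polymerase I genes with SL1 in 1 of 10 (10.0%, 0.253 to 44.5). The polymerase II class includes duplicated gene copies, none with a summit, and without them its share was 10 of 67 (14.9%). The classes of polymerases I and III hold no such copies. Of the 5 subunits common to all 3 enzymes, 3 had one. The 3 intervals overlap and each spans the 13.9% of all genes. The same 13.9% is the background for each smaller class of members counted in this way below. The difference between machineries was not tested, and the members were grouped with earlier results of this list known. Counting shared subunits in each enzyme gave 8 of 23 for polymerase III (34.8%), 13 of 89 for polymerase II (14.6%) and 4 of 17 for polymerase I (23.5%), where all 3 additional polymerase I summits were shared subunits. With only those summits that scored at least the median, the polymerase III share was 2 of 16 (12.5%) beside 10.7% of polymerase II genes and 7.36% of all genes.

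**Figure D1:**
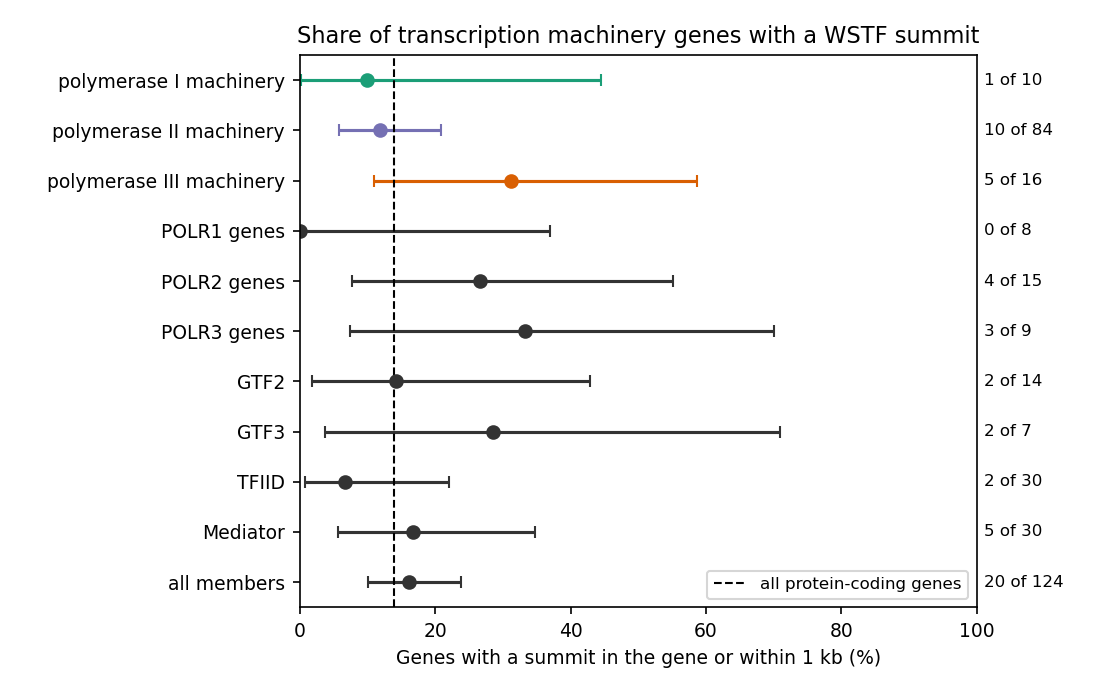
Percent of genes in which a summit lay inside the gene or at most 1 kb away (x axis) for each group of transcription machinery genes (y axis), with exact 95% intervals as bars and counts at the right. The dashed line is the 13.9% of all protein-coding genes. The point for polymerase III lies at 31.2%, those for polymerases I and II at 10.0% and 11.9%, with overlapping intervals. Polymerase II includes duplicated gene copies, none with a summit.

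The polymerase I enzyme carried no summit at the genes named after it. None of the 8 POLR1 genes had one (interval to 36.9%), an interval that spans the 13.9% of all protein-coding genes. They are the catalytic subunit genes POLR1A and POLR1B, then POLR1E, POLR1F, POLR1G and POLR1H, and POLR1C and POLR1D, whose products also serve polymerase III. The nearest summits were 66.6 kb from POLR1B, 89.6 kb from POLR1A and 95.9 kb from POLR1G. The 1 polymerase I gene with a summit was TAF1B, which encodes the SL1 subunit that resembles TFIIB. Its summit lay on chromosome 2 at position 9843496 with a score of 5.14. This is 22 bp downstream of the nearer of its 2 annotated start sites. The other SL1 genes, TAF1A, TAF1C and TAF1D, had none.

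The polymerase III enzyme had summits at 3 of 9 POLR3 genes (33.3%, 7.49 to 70.1). POLR3A encodes the largest, catalytic subunit. Its summit had a score of 2.88 and lay 7 bp downstream of the start site (chromosome 10, position 78029508). The summits of POLR3D and POLR3G had scores of 2.66 and 2.42, both below the lower quartile of the list, 2.76. POLR3D takes part in initiation and termination, and its summit was 121 bp outside the gene at position 22245012 on chromosome 8. That base lies inside MIR320A, a microRNA gene annotated beside POLR3D. POLR3G, a subunit typical of stem and proliferating cells, had its summit at position 90474788 on chromosome 5. It lay 859 bp inside the gene and 17 bp outside the neighbouring gene MBLAC2. POLR3GL, the paralog of POLR3G with the same place in the enzyme, had no summit, nor did POLR3B, POLR3C, POLR3E, POLR3F and POLR3K.

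The factors that bring polymerase III to its genes had summits at 2 of 7 loci. GTF3A encodes TFIIIA, the zinc finger protein first known for binding a ribosomal RNA gene. Its summit scored 6.37 and lay 5 bp downstream of the start site shown above (chromosome 13, position 27424624). GTF3C5 encodes a DNA-contacting subunit of TFIIIC. There the summit scored 5.14 and lay 149 bp downstream of the start site (chromosome 9, position 133031146). The other TFIIIC genes, GTF3C1, GTF3C2, GTF3C3, GTF3C4 and GTF3C6, had none, and the nearest to a summit was GTF3C6 at 13.975 kb. The summits of both factor genes thus scored above those of the 3 enzyme genes, which ran from 2.42 to 2.88.

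The subunits common to all enzymes were POLR2E, POLR2F, POLR2H, POLR2K and POLR2L, of which 3 had summits. POLR2L encodes a small subunit that helps assemble the enzymes. Its summit scored 5.27 and lay 148 bp upstream of the start site (chromosome 11, position 842677). The position is also 175 bp upstream of TSPAN4, which starts in the opposite direction. POLR2E, whose product forms part of the jaw that holds downstream DNA, had a summit of score 4.06 at position 1095187 on chromosome 19, 188 bp downstream of the start site. POLR2H had a summit of score 3.02 at position 184362964 on chromosome 3. It lay 1254 bp inside the gene and 397 bp upstream of the second of its annotated start sites. It was the only one of the 20 farther than 1 kb from both gene ends.

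Of the 10 remaining polymerase II subunit genes, 1 had a summit (10.0%, 0.253 to 44.5). This was POLR2M, which encodes Gdown1, a protein bound to part of the polymerase II pool and not a catalytic subunit. Its summit scored 3.62 and lay 47 bp upstream of the start site (chromosome 15, position 57706667). The same base is inside GCOM1, a longer gene that ends with POLR2M. The genes of the core, POLR2A, POLR2B, POLR2C, POLR2D, POLR2G, POLR2I and POLR2J, had none, nor had the copies POLR2J2 and POLR2J3. The nearest summits were 15.271 kb from POLR2C, 20.1 kb from POLR2G and 47.4 kb from POLR2A, the gene of the largest subunit.

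Among the 14 placed genes of general factors, 2 had summits (14.3%, 1.78 to 42.8), both with high scores. GTF2E2 encodes the beta subunit of TFIIE, which helps open promoter DNA. Its summit scored 6.41 and lay 69 bp outside the gene (chromosome 8, position 30658305). GTF2H1 encodes the p62 subunit of TFIIH. Its summit scored 6.22 and lay 201 bp upstream of the start site (chromosome 11, position 18322366). It is slightly closer, at 192 bp, to the outer limit of HPS5, the gene on the other strand. GTF2A1, GTF2A1L, GTF2A2, GTF2B, GTF2E1, GTF2F1, GTF2F2, GTF2H2, GTF2H2C, GTF2H3, GTF2H4 and GTF2H5 had none. The GTF2I family, DNA-binding factors with a general-factor symbol and neighbours in the Williams syndrome region that also holds BAZ1B, had none at GTF2I, GTF2IRD1, GTF2IRD2 or GTF2IRD2B. The closest summit was 18.9 kb from GTF2IRD2B.

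TFIID genes had summits in 2 of 30 cases (6.67%, 0.818 to 22.1). Of the 30, 13 are TAF11L genes, short copies in 1 cluster on chromosome 5, and the mapping of reads to them was not examined. Without them the share was 2 of 17 (11.8%, 1.46 to 36.4). TAF7, which binds TAF1 and restrains its acetyltransferase activity, had a summit of score 5.20 located 343 bp upstream of its start site (chromosome 5, position 141321127). TAF9, a histone-fold subunit that pairs with TAF6 and also serves in SAGA, had one of score 3.89 (chromosome 5, position 69369568). It lay 48 bp upstream of the nearer TAF9 start site. The same summit was 48 bp from a start site of AK6, which overlaps TAF9 on the same strand, and 250 bp from one of RAD17 on the other strand. The genes TAF1, TAF2, TAF3, TAF4, TAF5, TAF6 and TAF8 had none, nor did TAF10, TAF11, TAF12 and TAF13, nor the paralogs TAF1L, TAF4B, TAF7L and TAF9B. TAF10 was the nearest to a summit, at 2.756 kb.

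The TAF genes outside TFIID were TAF5L, TAF6L and TAF15. TAF6L, which takes the place of TAF6 in the SAGA coactivator, had a summit of score 5.15 at position 62786853 on chromosome 11. It differed from the other 16 members with a known strand, since it lay 15457 bp downstream of the start site and 489 bp from the 3′ end. The start site of the next gene, TMEM179B, was 549 bp away. TAF5L and TAF15 had none.

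Mediator genes had summits in 5 of 30 cases (16.7%, 5.64 to 34.7), beside 13.9% of all protein-coding genes. The scores of these summits ran from 4.44 to 7.48, all above the median of the list. MED31, in the middle module, had the highest score of all members, 7.48, rank 149 of 2697. Its summit lay 117 bp upstream of the start site (chromosome 17, position 6651722) and 40 bp outside C17orf100. MED26, which recruits elongation factors, had a summit of score 5.10 located 133 bp upstream (chromosome 19, position 16628337). MED19, also in the middle module, had one of score 4.62 located 62 bp downstream of the start site (chromosome 11, position 57712153). In the middle module 3 of 9 genes had a summit (33.3%, 7.49 to 70.1), an interval that also spans the share of all genes. MED25, a tail subunit contacted by activators, had one of score 4.88 located 12 bp upstream (chromosome 19, position 49818277). MED11, in the head, had one of score 4.44 located 4 bp upstream (chromosome 17, position 4731424).

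The other Mediator genes had none. They were MED6, MED8, MED17, MED18, MED20 and MED22 of the head, MED1, MED4, MED7, MED9, MED10 and MED21 of the middle, and MED15, MED16, MED23 and MED24 of the tail. MED14, the backbone, and MED27, MED28, MED29 and MED30 had none either. The 4 genes of the kinase module, MED12, MED12L, MED13 and MED13L, also had none (interval to 60.2%). MED22 was 2.091 kb from a summit and MED21 8.220 kb. Of the partners of this module outside the symbol rule, the kinase genes CDK8 and CDK19 each had a summit, of scores 5.20 and 6.04, and the cyclin gene CCNC had none.

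The 53 other genes of the machinery, which do not match the symbol rule, had a summit in 6 cases (11.3%, 4.27 to 23.03). This is near the 13.9% of all protein-coding genes. Besides CDK8 and CDK19, the genes with one were NELFB (6.01), of the pausing complex, CTR9 (3.799), of the elongation complex PAF, and CCNT1 (2.36), the cyclin of the elongation kinase CDK9. MAF1, the repressor of polymerase III, had one of score 5.14 located 692 bp outside the gene. TBP, which all 3 machineries use, and the polymerase III factor genes BRF1, BRF2 and BDP1 had none. Neither had the polymerase I factor genes UBTF and RRN3.

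The positions of summits within members were compared with those at all genes, using annotated start sites. Within 1 kb of a start site, 16 of 100 members with an entry had a summit (16%), beside 12.9% of all 15842 protein-coding genes with an entry. All 16 lay within 500 bp and 14 within 250 bp. The median distance was 89.5 bp for the members and 149 bp for all genes with such a summit. Of the 16, 10 were upstream and 6 downstream. On this measure 3 of 14 polymerase III genes counted (21.4%), where POLR3D and POLR3G have no entry. The member farthest outside its gene that counted was TAF7 at 343 bp, and the nearest that did not was MED22 at 2091 bp.

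**Figure D2:**
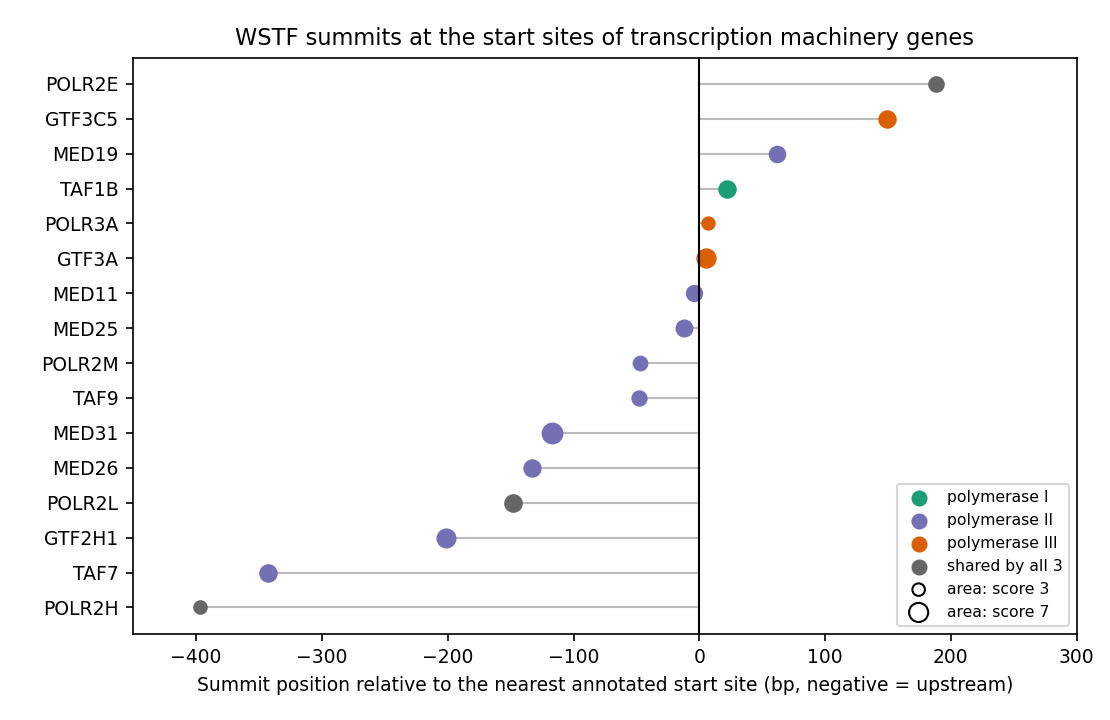
Position of the summit relative to the nearest annotated start site (x axis, bp, negative upstream) for the 16 members with a summit within 1 kb of one (y axis). The area of a point grows with its score and its colour gives the machinery; positions run from 397 bp upstream at POLR2H to 188 bp downstream at POLR2E, and 8 lie within 100 bp.

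The scores of the 20 member summits ran from 2.42 at POLR3G to 7.48 at MED31. Their median was 4.99 (exact order-statistic 95% interval 3.89 to 5.20), where the list as a whole had a median of 3.72 and quartiles of 2.76 and 5.04. The summits at protein-coding genes in general also had a median of 3.72. Of the members' summits, 15 were above the list's median and 10 at or above its upper quartile. The 5 below the median were those of POLR2M, POLR2H, POLR3A, POLR3D and POLR3G, all genes of polymerase subunits or of a polymerase-bound protein. No member was among the very high summits of the list. The scores come from 1 list and were not tested.

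**Figure D3:**
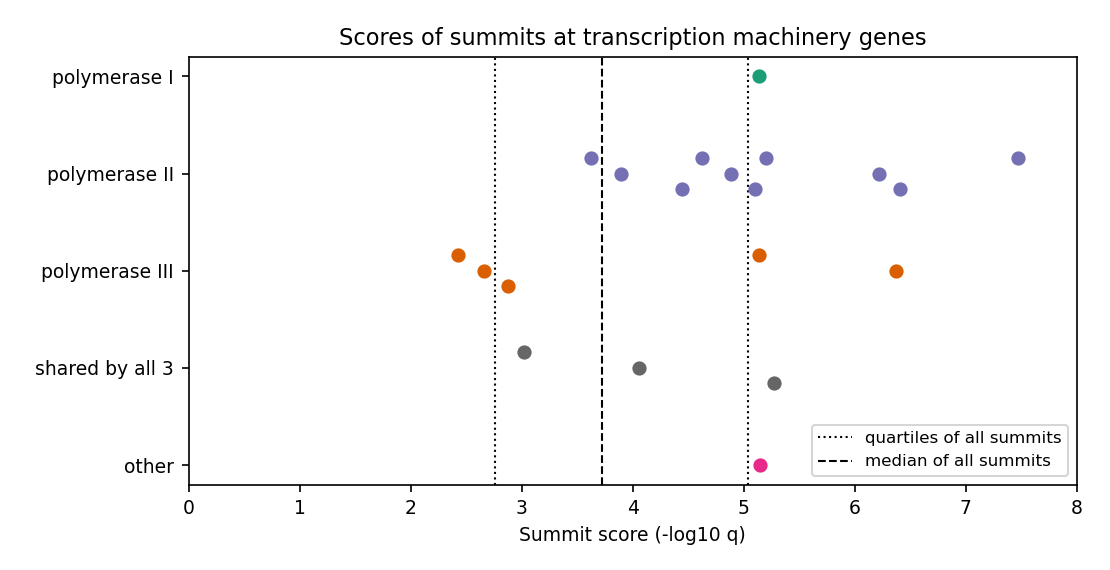
Score of each member summit (x axis, −log10 q) by machinery (y axis; points are spread vertically for legibility), with the median and quartiles of all 2697 summits as vertical lines. The polymerase III points lie at 2.42 to 2.88 and at 5.14 and 6.37, and 9 of the 10 polymerase II points lie above the median of 3.72.

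Several summits also lay near a neighbouring gene. Of the 20, 11 were inside or within 1 kb of another annotated gene and 8 of another protein-coding gene. Over the whole list, 479 of the 2431 summits at protein-coding genes were at several of them (19.7%), a difference that was not tested. Those 8 were GTF2H1 with HPS5, MED19 with TMX2, MED31 with C17orf100, POLR2L with TSPAN4, POLR2M with GCOM1, POLR3G with MBLAC2, TAF6L with TMEM223 and TMEM179B, and TAF9 with AK6 and RAD17. Counting each summit for the nearest protein-coding gene alone left 17 members, without GTF2H1, MED31 and POLR2M. All 5 polymerase III genes remained, and polymerase II had 7 of 84 (8.33%), where the share of all genes was 11.7%. Non-coding genes did not compete in this count. The summit kept for POLR3D lies inside MIR320A, and that of MED26 was 133 bp outside MED26 and 95 bp outside a lncRNA gene. POLR3G kept its summit as a position inside the gene, although the end of MBLAC2 was 17 bp away. The summit of a shared promoter cannot be assigned to one of its genes from this list.

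Members were spread over chromosomes 1 to 20, 22 and X. Chromosome 11 held 4 of the 20 summits, at GTF2H1, MED19, POLR2L and TAF6L, of 8 members there, and 20.97% of all protein-coding genes on it had one. Chromosome 16 went the other way, with none at 5 members where 23.9% of all genes had one. There were also none at the 9 members each of chromosomes 1, 6 and 7, where 10.2%, 10.7% and 14.5% of all genes had one. The median gene length was 11.02 kb for members with a summit and 25.2 kb for those without one, copies left out. Over all protein-coding genes the medians were 29.3 kb with and 23.7 kb without a summit.

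The promoter letters were compared as a description. Promoters of members with a summit had a median of 28 CpG dinucleotides in 300 bases (range 14 to 47, 20 windows of 17 genes). The summit itself lay inside a listed window for 11 of these genes. Members without a summit had a median of 22 (2 to 56, 99 windows of 83 genes), or 24 without the copies, and all protein-coding promoters 21. Genes in general differed by CpG count as well. For this comparison each gene was placed by its first listed window alone, also where several were listed. A summit was found at 5.35% of genes with 0 to 14 CpG in that window, 15.2% of those with 15 to 28 and 23.8% of those with 29 to 69. The members' shares rose as well, with 1 of 16, 9 of 57 and 7 of 27 (6.25%, 15.8% and 25.9%). The lowest group held all 13 TAF11L copies, none with a summit, so its low share rests largely on that cluster. The part of CpG counts in the differences between machineries was not tested.

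**Figure D4:**
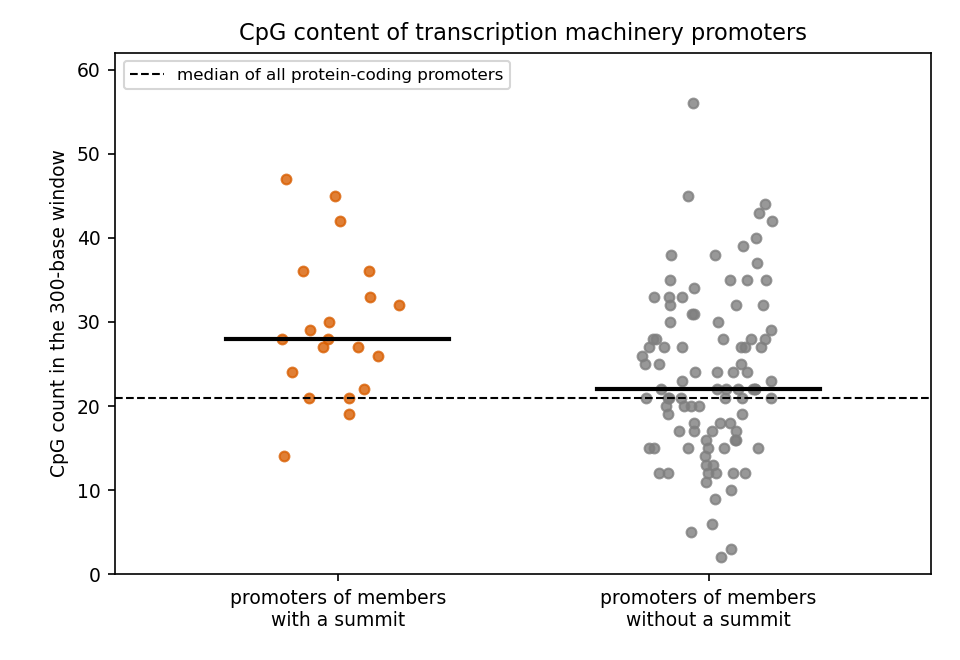
CpG count in the 300-base promoter window (y axis) of members with and without a summit (each point is a listed promoter, spread sideways for legibility; thick bars are medians). The medians are 28 and 22, the dashed line marks the 21 of all protein-coding promoters, and the ranges overlap widely.

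Exact matches to 9 motifs were sought on both strands of the windows: TATAAA (the TATA box), CCAAT (bound by NF-Y), GGGCGG (SP factors), CCGGAAG (ETS factors), CACGTG (the E-box), TGACGT (part of the cyclic AMP element), GCATGCG (part of the NRF1 site), ACTACAA (part of the ZNF143 site) and AAGATGG (part of the YY1 site). The ETS core CCGGAAG was in 36.1% of the 119 member windows and in 12.8% of the 22175 windows of all protein-coding genes. It was in 9 of the 20 windows that belong to members with a summit (45%) and 34 of the 99 of members without (34.3%), so it was common in both. Among all genes with a summit it was in 17.8% of windows. Windows with it included all 4 SL1 genes, TAF1A, TAF1B, TAF1C and TAF1D. The SP core GGGCGG was in 15 of the 20 windows of members with a summit (75%) and 60.6% of those of members without. All genes with a summit had it in 71.1% of their windows, and all genes in 56.3%. TATAAA was in 1 of the 20, that of POLR2M, beside 4.97% for all genes with a summit and 9.47% of all windows. The POLR2M match spans bases 66 to 71, far upstream of the start site at base 251, so the letters alone do not make it a TATA box. CACGTG was in 4 of the 20, at GTF2H1, POLR3A, TAF6L and TAF9, and in 14.1% of the windows of members without a summit. Here the share was 10.98% for all genes with a summit and 8.34% of all windows. At TAF6L the summit lay outside the window, 15457 bp downstream of the start site. A match is no evidence that a factor is bound.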

How the data were processed

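ChIP-seq of WSTF in SW620 cells was analysed from a single summit list of the series as a whole. Per the labels' protocols, cells were fixed with 1% formaldehyde for 10 min and chromatin was sheared to 200 to 500 bp. Per the submitters' processing notes, Trimmomatic 0.39, Bowtie2 2.4.4, MACS2 2.2.7.1 and hg38 were used. Per the design text, peaks were called against input. The deposited score is given as −log10 of the q-value; this reading rests on its minimum, 1.31, which lies just above 1.30, the value of a q of 0.05.

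Positions were compared with the RefSeq GRCh38.p14 gene table (Python 3.11.15, pandas 2.3.3, scipy 1.17.1), and the assignment was tested on simulated data. Protein-coding genes listed after the chromosome blocks of the table were left out. Motifs were fixed lists of letters. The members, classes and lists were chosen with earlier results of these data known, so no test was run. A gene that matches the symbol rule, left out of every count, and 1 promoter sequence are not reported here. Alternatives changed the window, part of the gene, score threshold, assignment and copies.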

Additional observations from a re-analysis of the deposited data

How the results depend on the processing

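Of 86 alternative values, 80 stayed within the exact 95% interval of the main value, an interval that is wide for small classes. A 500 bp window, and leaving out the 3 highest summits, changed no member. Their values repeat the main ones and are counted among the 80 and in the 12 settings below. Counting summits inside genes alone gave 8.06% for all members (8.15% of all genes), 2.38% for polymerase II genes, 3.33% for Mediator and 0% for the general factors (GTF2, 0 of 14), because 10 of the 20 summits lay outside the gene. With summits at or above the upper quartile of the score, 8.06% of all members had one (3.94 to 14.3), beside 3.64% of all genes. The median score of member summits was then 5.24, a rise that the threshold itself imposes, since no summit below 5.04 was kept. Polymerase III had the highest of the 3 shares in all 12 settings that gave all of them, the main one included, from 12.5% to 34.8%; the settings share the same summits and genes. Leaving out copies gave 20 of 105 members (19.05%) and 10 of 67 polymerase II genes (14.9%). Counting GTF2H2C_2 at its table coordinates, chosen after seeing the data, gave 21 of 125 (16.8%). The median score of member summits ranged from 4.34 to 5.24, where the top value is the one imposed by the score threshold. The read depth is unknown. No paired analysis was possible because the deposited list has no replicates to pair.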

Other observations

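Genes that the polymerases themselves transcribe were counted with the same 1 kb window. Of 431 transfer RNA genes, products of polymerase III, 22 had a summit (5.10%, exact 95% interval 3.23 to 7.63), and at 15 of these the summit was also inside or within 1 kb of a protein-coding gene. Among 33 ribosomal RNA genes, 1 had a summit, the ribosomal precursor gene RNA45SN1, a polymerase I template. Of 152 small nuclear RNA genes, the polymerase III template RNU6-1 alone had one (0.658%, 0.0167 to 3.61). RN7SK, RN7SL1, RN7SL2, RMRP and RPPH1, all polymerase III templates, had none (0 of 5, interval to 52.2%). Transfer and ribosomal RNA genes exist in many very similar copies, and how the mapping placed their reads is not known, so these counts are uncertain. No share over other genes of similar length was counted beside them. The values therefore show neither an excess nor a lack of summits at these templates.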
